A study of Mus musculus with 109 samples.

Results

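Lungs of mice carrying 1 disrupted copy of Hhip were compared with lungs of wild-type mice, both kept in air and both of the strain labelled C57BL6. The arrays were chosen by 3 labels, strain C57BL6, treatment Air and genotype HHIPHet or WT, which gave 12 HHIPHet arrays, written Hhip+/- below, and 22 wild-type arrays, 34 arrays beside 75 others in the series. The other groups were FAM13AKO, written Fam13a-/- below, in air (6) and smoke (13), both C57BL6, and wild-type mice of the strain NZWLacJ in air (8) and smoke (6). Titles of the NZWLacJ arrays read C57Air or C57Smoke, so title and strain label conflict there, and the strain label was followed. All 8 groups shared 1 estimate of the spread. Each array measured total RNA of mouse lung on a single-colour Illumina bead array. The same genotypes after 6 months of cigarette smoke on 5 days a week, 14 Hhip+/- and 28 wild-type arrays with no sample in common with the air arrays, were used as a separate set. The same 6 months and 5 days a week are listed for the air arrays of both genotypes. The labels name no allele construction, clone, promoter, sex, age or litter, so what part of Hhip was removed is not known here. Nothing in the labels says that arrays came from separate animals, so the p-values rest on the scatter among samples, which may be technical.

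Hhip encodes a membrane-anchored protein that binds Hedgehog ligands and keeps them from their receptor. Sonic hedgehog from the epithelium signals through the receptor Patched and the transducer Smoothened to the surrounding mesenchyme, where Gli transcription factors carry the signal and Hhip itself is among the induced genes. The pathway shapes the branching of the embryonic lung, and the human HHIP region is a risk locus for chronic obstructive pulmonary disease.

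Values are background-corrected, quantile-normalized log2 signals, and a difference is Hhip+/- minus wild type on that scale, with its standard error. A gene was called when limma's p, adjusted by the Benjamini-Hochberg method over 11346 genes or unnamed probes, was below 0.05. Arrays detected a median of 50.8% of the probes in Hhip+/- air and 50.1% in wild-type air, where replicate 5 was lowest with 37.1%. Ager, Cldn18, Sftpa1, Sftpb, Sftpc and Scgb1a1, markers of alveolar and club cells, were detected on 34 of 34 arrays, and their smallest adjusted p was 0.797. Xist was detected on every array of both groups. In tissue RNA, fewer cells of a type and less RNA per cell cannot be told apart.

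A few arrays read against their label, and those of the air comparison are named before the results. Wild-type air replicates 6 and 22 lay in the Hhip+/- range for several genes on chromosome 8, which carries Hhip. Mt3 read 7.92 on replicate 6 and 6.60 on replicate 22, while the other 20 wild-type air arrays read at most 5.42. Zfp869 read 8.49 and 8.60 on them, against at least 9.06 on the other 20, and Zfp330 read 9.26 and 9.64, against at least 10.15. Both arrays stayed in the group their label gives, and the main counts are also given without them, a choice made after seeing these values and so no independent support.

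In air, 7 of 11346 genes were called (0.0617%), 2 higher in Hhip+/- lung (0.0176%) and 5 lower (0.0441%). Mt3, a brain-enriched metallothionein that binds zinc and copper, was higher, as was Ciapin1, a factor for assembling iron-sulphur clusters in the cytosol. The zinc-finger genes Zfp869 and Zfp930 were lower, together with Crem, a modulator of cAMP-responsive transcription, Nmrk1, which phosphorylates nicotinamide riboside on the way to NAD, and Emcn, the endothelial surface sialomucin endomucin. Mt3, Ciapin1, Zfp869 and Zfp930, 4 of the 7, lie on chromosome 8, which held 564 tested genes. The other 3 were called among 9882 tested genes placed on other chromosomes. At an unadjusted p below 0.05 there were 971 genes (8.56%), 407 higher (3.59%) and 564 lower (4.97%). No gene had every Hhip+/- array outside the range of the wild-type arrays (0 of 11346). Without wild-type replicates 6 and 22, 25 genes were called (0.22%), among them all 7, and 1170 had an unadjusted p below 0.05, 476 higher and 694 lower. Mt3 and Zfp330 were then the 2 genes with every Hhip+/- array outside the wild-type range. That separation follows from the removal, because readings of these genes picked out the arrays.

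Mt3 gave the largest difference. Wild-type air arrays read from 4.48 to 7.92, median 4.81, and Hhip+/- air arrays from 5.91 to 8.20, median 7.53. The probe was detected on 12 of 12 Hhip+/- arrays and on 2 of 22 wild-type arrays, which were replicates 6 and 22. Apart from these 2 arrays the groups did not overlap. The means were 7.40 ± 0.59 (SD, n = 12) and 5.07 ± 0.79 (SD, n = 22), a difference of 2.33 ± 0.31 or 5.03-fold (limma adjusted p = 1.56e-07). Without replicates 6 and 22, picked partly by their Mt3 readings, no wild-type array detected Mt3. On the background-corrected scale, Hhip+/- lung was then at least 3.89-fold higher. That figure takes for each wild-type array the higher of its dimmest detected signal and its own Mt3 signal. It is no lower bound under other treatments of background. Over all arrays, the log2 difference was 1.24 with no background correction and 0.80 in the authors' processed values (adjusted p = 1.05e-05).

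The other metallothioneins lie beside Mt3 on chromosome 8. In the order of tested genes, Mt4, Mt3, Mt2 and Mt1 follow one another. Mt1 was among the brighter probes of the arrays, with means of 13.42 ± 0.32 (SD, n = 22) for wild type and 13.17 ± 0.26 (SD, n = 12) for Hhip+/-, which differed by -0.25 ± 0.12 (adjusted p = 0.539). Mt2 differed by -0.07 ± 0.20 (adjusted p = 0.967) and Mt4, detected on 1 of 22 and 0 of 12 arrays, by -0.10 ± 0.13 (adjusted p = 0.901). Of the 4 members, Mt3 alone was called, and the other 3 had differences below 0. The median over the 4 was -0.086, beside -0.0065 over all genes tested.

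The start regions of 3 of these genes are shown because neighbours with related products differed in what they did. Metallothionein promoters are known for metal response elements, the binding sites of the zinc-sensing factor MTF1. The pattern searched was TGCNCNC, which is looser than the core of that element, so some copies may not match the core. Capitals mark each copy of the pattern on either strand, with copies that overlap run together. The sequences are from RefSeq, build GRCm38.p6, from 250 bases before to 50 bases after each gene's start, and all 3 genes lie on the plus strand.
Mt3, chr8:94152357-94152656: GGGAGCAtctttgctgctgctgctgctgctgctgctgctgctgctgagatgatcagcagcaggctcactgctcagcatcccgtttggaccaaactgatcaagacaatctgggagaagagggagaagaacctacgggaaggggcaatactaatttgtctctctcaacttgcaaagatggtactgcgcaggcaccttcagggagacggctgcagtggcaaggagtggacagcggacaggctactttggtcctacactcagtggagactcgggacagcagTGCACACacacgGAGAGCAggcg
Mt2, chr8:94172368-94172667: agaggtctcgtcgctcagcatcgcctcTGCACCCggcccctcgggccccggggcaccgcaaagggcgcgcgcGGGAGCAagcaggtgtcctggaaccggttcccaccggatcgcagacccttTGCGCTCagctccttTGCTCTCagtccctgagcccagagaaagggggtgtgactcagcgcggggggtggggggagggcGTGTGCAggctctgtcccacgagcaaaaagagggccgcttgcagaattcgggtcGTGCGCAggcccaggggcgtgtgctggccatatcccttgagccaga
Mt1, chr8:94178839-94179138: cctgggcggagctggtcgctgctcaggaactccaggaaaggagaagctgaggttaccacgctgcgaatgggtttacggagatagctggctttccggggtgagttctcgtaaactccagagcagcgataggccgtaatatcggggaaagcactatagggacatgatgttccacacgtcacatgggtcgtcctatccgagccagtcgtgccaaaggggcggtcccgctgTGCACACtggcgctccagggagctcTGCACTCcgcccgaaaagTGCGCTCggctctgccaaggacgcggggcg
Mt3 held 3 copies of the pattern, 1 on the plus and 2 on the minus strand. Mt2 held 6 and Mt1 held 3. The pattern is common, being present in 16765 of 32851 promoters of the same 300 bases (51%), and a match is a run of letters, not a shown site. Counts of the pattern are not counts of metal response elements.

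Zfp869, which encodes a zinc-finger protein, separated the genotypes in the other direction. Wild-type air arrays read from 8.49 to 9.74, median 9.34, and Hhip+/- air arrays from 8.28 to 9.09, median 8.71. Of the 22 wild-type arrays, 3 lay in the Hhip+/- range. All 12 Hhip+/- arrays were below the wild-type mean, and the difference was -0.60 ± 0.10 (limma adjusted p = 5.67e-04), a 1.51-fold lower signal. Zfp930, 3 tested genes away, read from 6.64 to 8.25, median 7.65, in wild-type air and from 6.73 to 7.39, median 7.15, in Hhip+/- air. It was lower by -0.54 ± 0.11 (adjusted p = 0.00836), again with 12 of 12 arrays below the wild-type mean and with 4 wild-type arrays in the Hhip+/- range.

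Ciapin1 read from 8.11 to 9.19, median 8.57, in wild-type air and from 8.68 to 9.22, median 8.97, in Hhip+/- air. Its difference was 0.39 ± 0.08 (adjusted p = 0.00683), with 12 of 12 Hhip+/- arrays above the wild-type mean and 6 wild-type arrays in the Hhip+/- range. This was the smallest change among the 7, 1.31-fold.

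**Figure D1:**
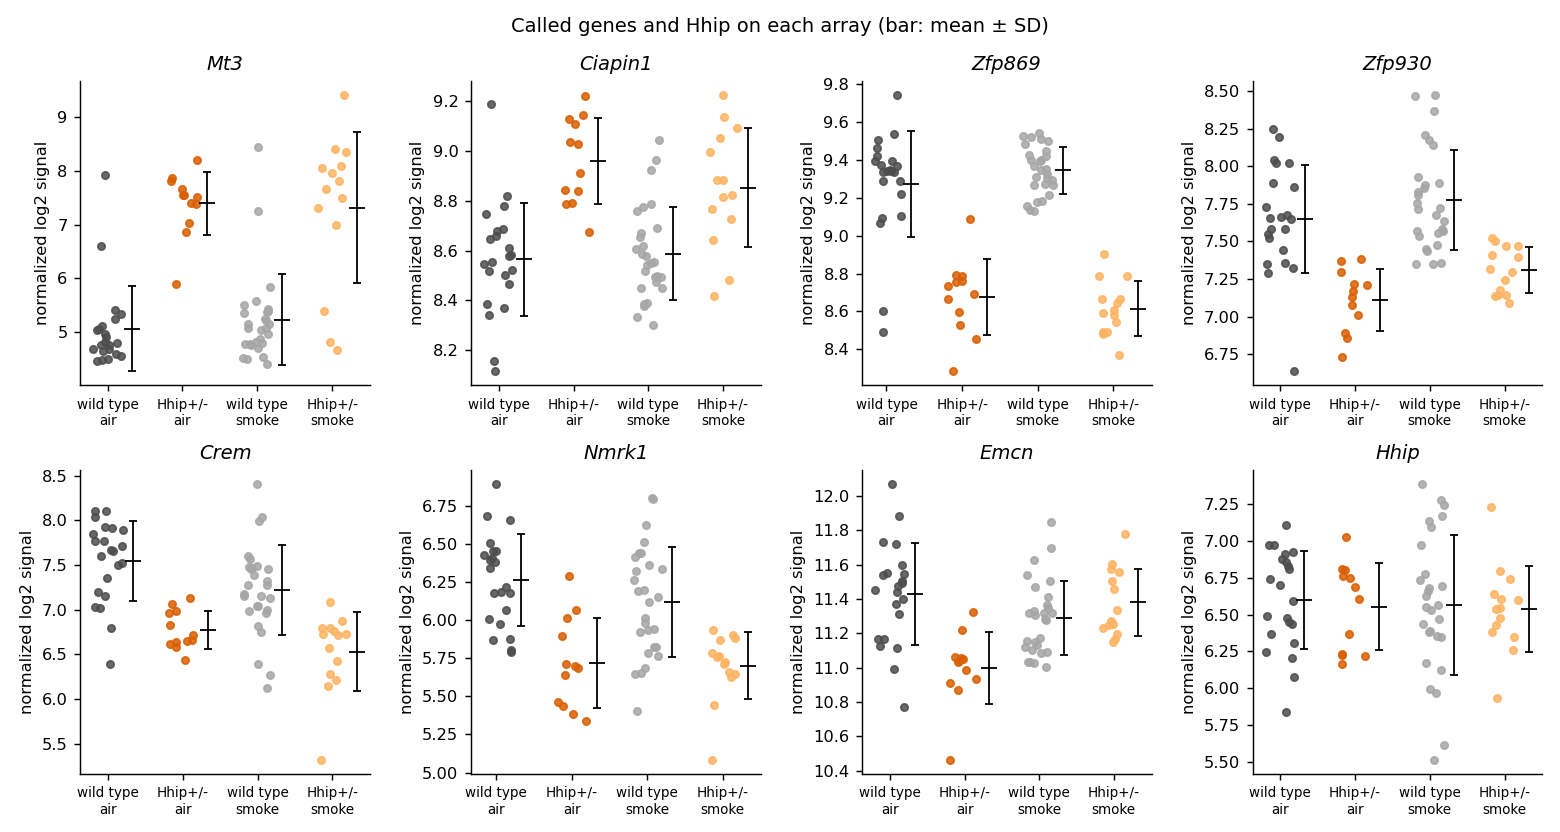
Normalized log2 signal of the 7 called genes and of Hhip, 1 panel a gene, with a point for each array of wild-type air (22), Hhip+/- air (12), wild-type smoke (28) and Hhip+/- smoke (14); bars are mean ± SD. Mt3 and Zfp869 separate most arrays of the genotypes in air and in smoke, Emcn differs in air, and Hhip overlaps throughout.

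The other 3 called genes lie outside chromosome 8. Crem, on chromosome 18, read from 6.39 to 8.10, median 7.66, in wild-type air and from 6.44 to 7.13, median 6.69, in Hhip+/- air. Its difference was -0.77 ± 0.15 or 1.71-fold lower (adjusted p = 0.00683), and 3 wild-type arrays lay in the Hhip+/- range. The spread was also smaller in Hhip+/- air, with an SD of 0.22 against 0.45. Crem is the 1 called gene with more than 1 probe kept: the 3 differed by -0.77, -0.71 and -0.39, all downwards, and 2 further probes were detected on no array.

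Nmrk1, on chromosome 19, was a dim probe. It read from 5.79 to 6.89, median 6.28, in wild-type air and from 5.34 to 6.29, median 5.69, in Hhip+/- air, and 11 of 22 wild-type arrays lay in the Hhip+/- range. The difference was -0.54 ± 0.11 (adjusted p = 0.00836), but -0.16 (adjusted p = 0.0486) in the authors' processed values. Emcn, on chromosome 3, was bright, from 10.77 to 12.07, median 11.46, in wild-type air and from 10.46 to 11.33, median 11.04, in Hhip+/- air. It was lower by -0.43 ± 0.09 (adjusted p = 0.0132), and it lost its call without Hhip+/- replicate 6, the array with its lowest value (adjusted p = 0.0569).

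The named calls had 2 limits. With median scaling in place of quantile normalization Mt3 was called and the other 6 were not, with adjusted p from 0.129 to 0.978 and differences from -0.72 to 0.41 in the same directions. All Hhip+/- air arrays carry sample numbers up to 64 and 16 of the 22 wild-type arrays carry higher ones; among the 12 and 6 arrays up to 64, where the wild-type arrays include replicate 6, only Crem was called (-0.92, adjusted p = 0.00483) and Mt3 differed by 2.18 (adjusted p = 0.0719).

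Just beyond the threshold, with adjusted p from 0.0503 to 0.0552, lay 9 named genes and 1 unnamed probe. Edn1, the vasoconstrictor endothelin-1, had the largest difference of these, 0.77 ± 0.18. It read from 10.66 to 12.15 in wild-type air and from 11.28 to 12.67 in Hhip+/- air, with 12 of 12 Hhip+/- arrays above the wild-type mean. Tril, a Toll-like receptor accessory protein, differed by 0.48, Tmem86a by 0.42, Hs3st1, a heparan sulphate sulphotransferase, by 0.58, Tmem204 by 0.34 and the homeobox gene Meis2 by 0.33. Armc6, on chromosome 8, differed by 0.46. B3gnt3, a glycosyltransferase gene also on chromosome 8, differed by -0.58. The autophagy gene Atg9b, detected on only 3 of 22 wild-type and 0 of 12 Hhip+/- air arrays, differed by -0.42. None of these passed the test with all 34 arrays, and all 9 named genes were among the 25 called without wild-type replicates 6 and 22.

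Chromosome 8 held more differences than the rest of the genome. Of its 564 tested genes, 75 had an unadjusted p below 0.05 in air (13.3%), against 823 of 9882 genes elsewhere (8.33%). Chromosome 18 came next with 11.8% of 238 genes. By place in the order of tested genes, counted from Hhip, the shares were 26% for the genes 51 to 100 before it, 22% for the 50 just before and 24% for the 50 just after. They were 10% and 14% in the next stretches of 50 after it, and 8% and 8.59% among genes more than 150 away on either side. In smoke the same stretches from 150 before to 150 after Hhip held 26% to 30%, beside 15.1% of all genes. Zfp930 and Zfp869 lie 83 and 80 tested genes before Hhip, and Mt3 and Ciapin1 lie 79 and 93 after it. Without wild-type replicates 6 and 22 the shares were 16.3% on chromosome 8 and 10.1% elsewhere. Of the 25 genes then called, 8 lay on chromosome 8, which is 1.42% of its tested genes, against 0.162% elsewhere. These 2 arrays were picked by readings of chromosome 8 genes. Higher shares there can follow from the removal and are no independent support. The stretch from 51 to 100 before Hhip then held 30%, the 50 before 24% and the 50 after 28%, against 11% and 11.7% at the far ends. With every kept probe tested on its own, 12 probes were called, and 2 of the 3 genes this added besides Tril lie on chromosome 8: Prdx2, an antioxidant peroxiredoxin (-0.71), and Lpcat2, a phospholipid acyltransferase (0.77), through probes dimmer than the one used elsewhere. These 2 were singled out after their values were seen, and their brighter probes gave -0.29 and -0.23.

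**Figure D2:**
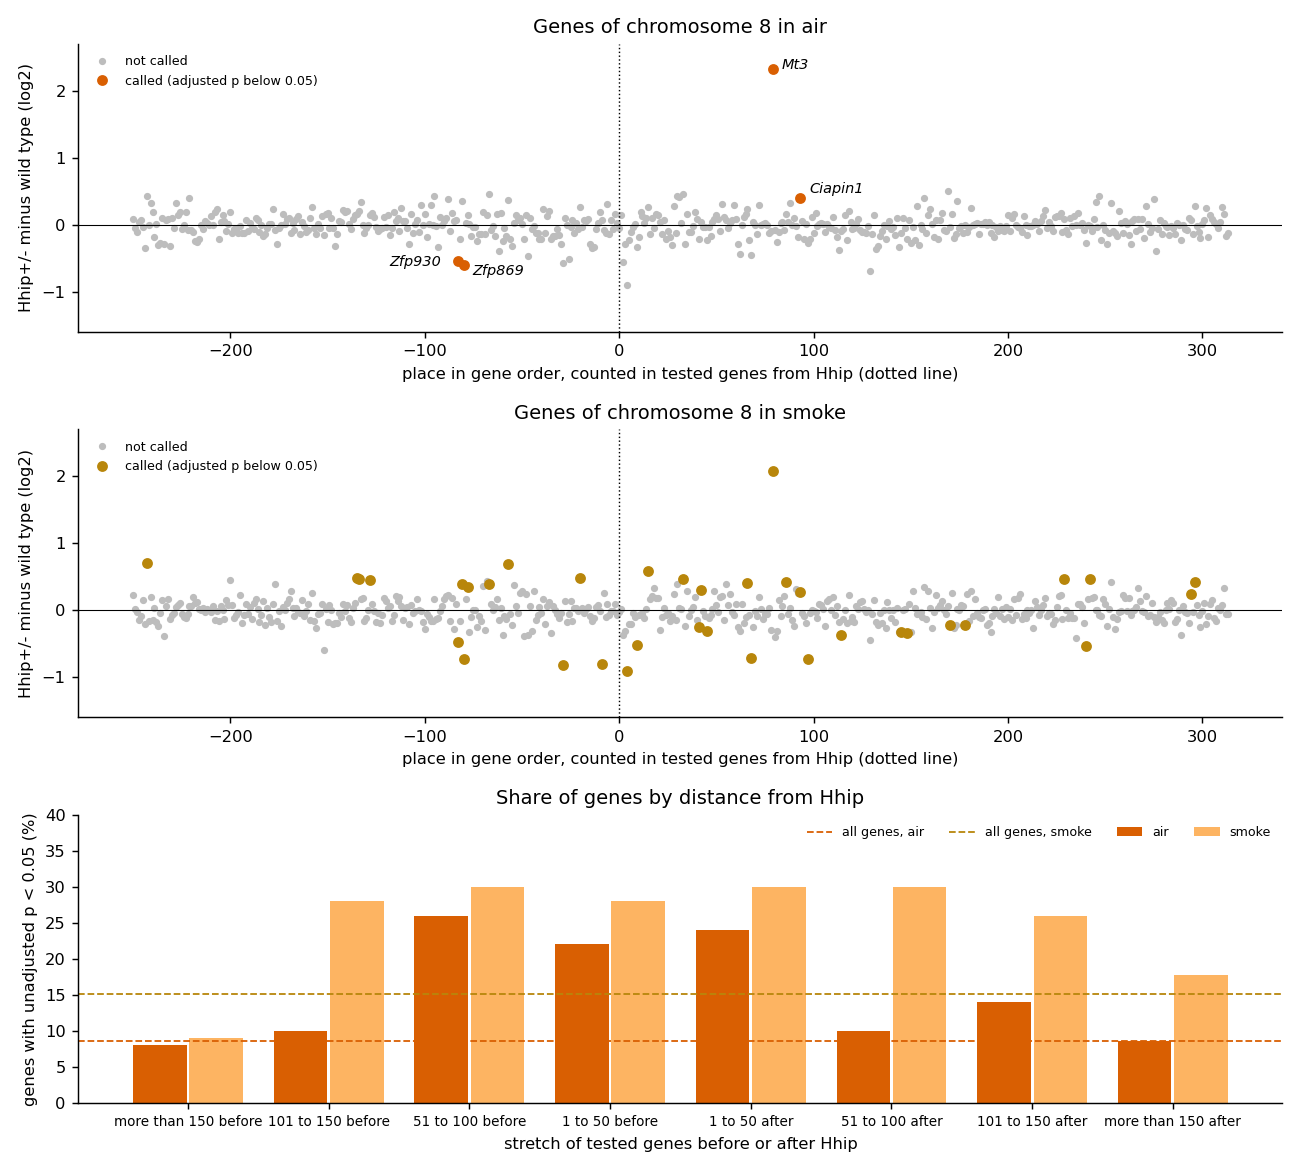
The upper panels plot the difference between genotypes (log2) of each of the 564 tested genes of chromosome 8 against its place in the gene order counted from Hhip, in air and in smoke, with called genes coloured. The lower panel gives the share of genes with an unadjusted p below 0.05 in stretches before and after Hhip, with dashed lines at the share over all genes: air bars reach 22% to 26% from 100 genes before to 50 genes after Hhip and lie near 8% at the far ends.

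The 5 nearest tested genes on either side of Hhip were read next. Before Hhip, Ttc29, Slc10a7, Lsm6, Smad1 and Abce1 differed by -0.14 to 0.15, with unadjusted p from 0.331 to 0.908. After Hhip, Gab1 differed by 0.14, and the other 4 were below 0. These were Usp38, a deubiquitinating enzyme, at -0.55 ± 0.15, Il15, the cytokine that sustains natural killer cells, at -0.29 ± 0.11, Zfp330 at -0.89 ± 0.27 and Tbc1d9 at -0.24 ± 0.11. Their unadjusted p ran from 2.70e-04 to 0.0389, and none of the 10 neighbours was called in the fit over all 8 groups of the series.

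Zfp330, a zinc-finger gene 4 places after Hhip, had the clearest separation of these. Wild-type air arrays read from 9.26 to 10.78, median 10.40, and Hhip+/- air arrays from 9.09 to 9.75, median 9.48. The only wild-type arrays in the Hhip+/- range were replicates 6 and 22. In the fit over all groups its adjusted p was 0.182. Each group has its own mean there, so the pooled error takes in the scatter within groups. The NZWLacJ arrays, of another strain, scattered widely, from 4.53 to 10.33 in air and from 4.54 to 10.40 in smoke. Their medians were 5.38 and 4.88, with SDs of 1.97 (n = 8) and 2.27 (n = 6). Titles of these arrays read C57Air or C57Smoke, against their strain label. Why arrays with that strain label differ among themselves was not tested. In the fit on the 34 air arrays alone the Zfp330 difference had an error of 0.11 and an adjusted p of 2.43e-06, and Usp38 had 0.0222.

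Some Hhip+/- smoke arrays also read against their label, for Zfp330, Mt3 and Ciapin1. Replicates 1, 5 and 12 read 10.34, 10.21 and 10.28 for Zfp330, against at most 9.61 on the other 11 arrays of that group. The same 3 arrays read 4.67, 5.40 and 4.83 for Mt3, against at least 6.99, and 8.48, 8.42 and 8.64 for Ciapin1, against at least 8.72. All 3 genes lie after Hhip, and for them these arrays lay in the wild-type smoke range. For Zfp869, which lies before Hhip, they read 8.61, 8.37 and 8.66. For B3gnt3, also before Hhip, they read 7.27, 7.27 and 7.12. Both sets lay within or below the range of the other Hhip+/- smoke arrays. These few genes do not show where along the chromosome the arrays change. Wild-type smoke replicates 4 and 12 read 7.26 and 8.45 for Mt3 and 8.96 and 9.04 for Ciapin1, in the Hhip+/- range, and 10.38 and 10.44 for Zfp330, in the wild-type range.

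**Figure D3:**
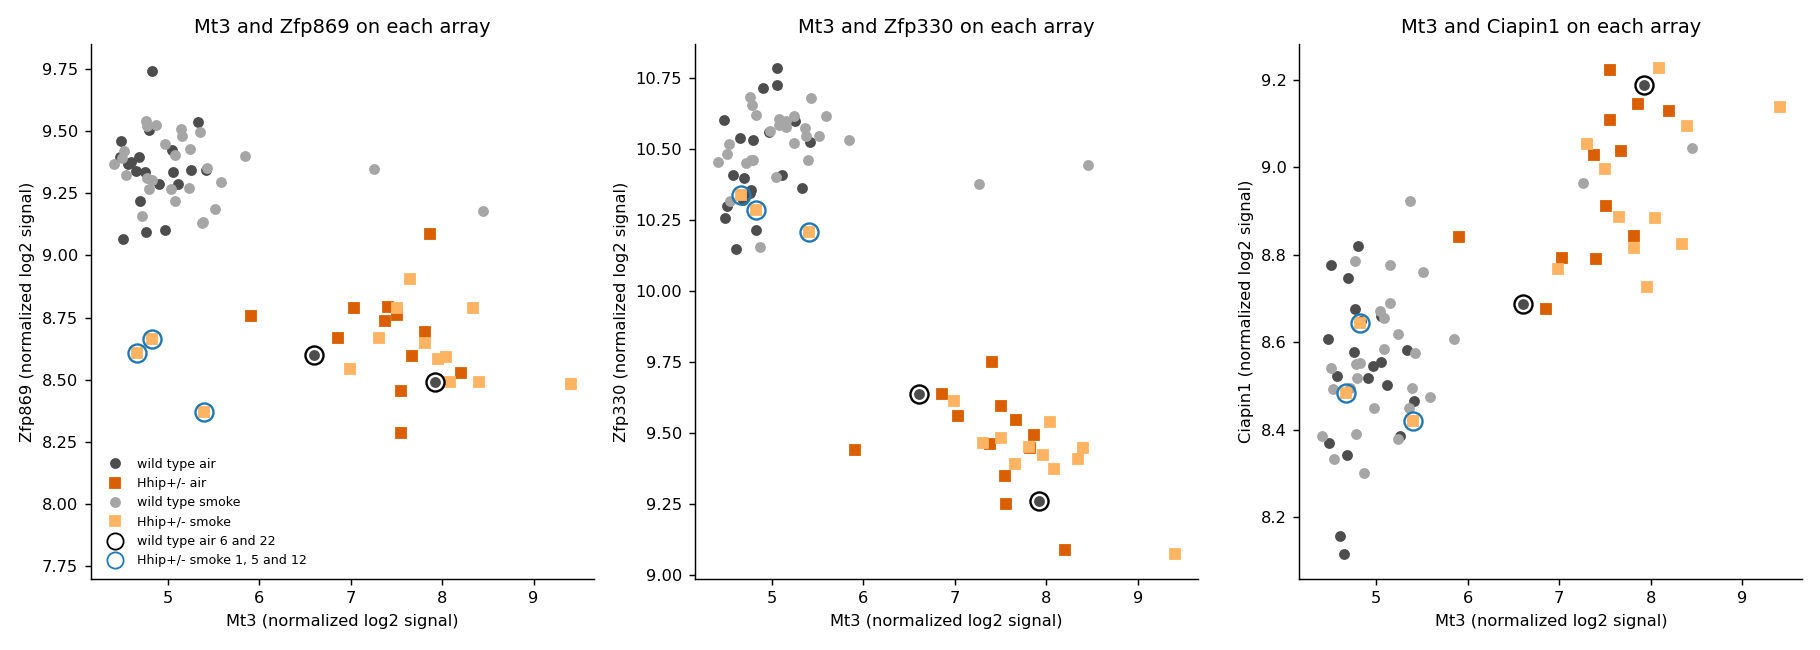
Each point is an array, with the normalized log2 signal of Mt3 on the horizontal axis and of Zfp869, Zfp330 or Ciapin1 on the vertical axis, for both genotypes in air and smoke. Black rings mark wild-type air replicates 6 and 22, which lie with the Hhip+/- arrays, and blue rings mark Hhip+/- smoke replicates 1, 5 and 12, which lie with the wild-type arrays for Mt3, Zfp330 and Ciapin1 and with the Hhip+/- arrays for Zfp869.

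The Hhip probe did not tell the genotypes apart. It read from 5.84 to 7.11, median 6.65, in wild-type air and from 6.17 to 7.03, median 6.65, in Hhip+/- air, and 19 of 22 wild-type arrays lay in the Hhip+/- range. The difference was -0.04 ± 0.14 (adjusted p = 0.973), with a 95% interval from -0.32 to 0.24. Whether the probe lies in the removed part of the gene is not known here, so these values do not check the label.

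Of 36 genes in 2 lists, of Hedgehog pathway members and of known Hedgehog targets, 20 were tested and none was called in air, nor had any an unadjusted p below 0.05, beside 0.0617% and 8.56% of all genes. Without wild-type replicates 6 and 22 none was called and 1, Evc (-0.26), had an unadjusted p below 0.05. The ligands Shh and Dhh differed by 0.06 ± 0.10 and -0.04 ± 0.17. Among proteins that make or release the ligand, the acyltransferase Hhat differed by 0.00 ± 0.11, Disp1 by 0.15 ± 0.15 and Scube2 by -0.12 ± 0.18. Smo, the transducer, differed by -0.06 ± 0.13 and Sufu, which restrains Gli proteins and was detected on 4 of the 34 arrays, by 0.03 ± 0.11. Evc, a ciliary partner of Smo, had the smallest p of the pathway list (-0.24 ± 0.12, unadjusted p = 0.0554), and Evc2 differed by 0.05 ± 0.10. Spop, Stk36 and Gpc3 differed by -0.08, 0.12 and 0.07.

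No target passed the test either. The forkhead factors Foxf1 and Foxf2 differed by -0.10 ± 0.21 and 0.29 ± 0.24, the cyclins Ccnd1 and Ccnd2 by -0.11 ± 0.09 and 0.43 ± 0.25, and Bmp4 by 0.11 ± 0.11. Igf1 and Bcl2 differed by -0.23 ± 0.20 and -0.09 ± 0.10. The medians were 0.0023 over 13 pathway genes and -0.067 over 8 targets, beside -0.0065 over all genes. The widest reach among the intervals was that of Ccnd2, from -0.06 to 0.91. The main reporters of pathway activity were not among the tested genes: the probe of Ptch1 was detected on 3 arrays of the whole series and that of Gli1 on none, so a difference in them was not detectable here. In smoke, Dhh was called lower in Hhip+/- lung (-0.57, adjusted p = 0.0332), but not without the 5 arrays named as reading against their label (-0.60, adjusted p = 0.0514).

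**Figure D4:**
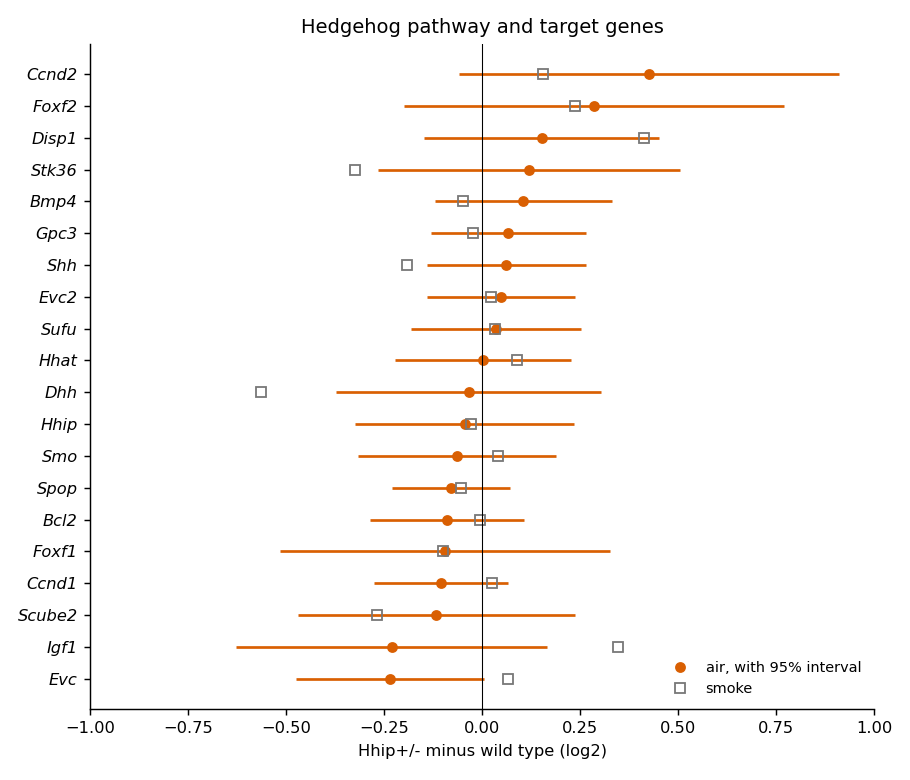
Differences between genotypes (log2) of the 20 tested Hedgehog pathway and target genes, with points and 95% intervals for air and open squares for smoke. Every air interval includes 0, and Hhip itself lies at -0.04.

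The smoke arrays gave a second reading of the genotype with other samples. There 212 genes were called (1.87%), 111 of them higher in Hhip+/- lung (52.4%). With median scaling 56 were called, 14.3% of them higher. Of the 7 air genes 6 were called in smoke in the same direction, which is 85.7% of the air calls and 2.83% of the smoke calls. Mt3 differed by 2.08 ± 0.28 (adjusted p = 1.84e-07), Zfp869 by -0.73 ± 0.10 (adjusted p = 9.99e-08), Crem by -0.69 ± 0.14 (adjusted p = 0.00153), Zfp930 by -0.47 ± 0.10 (adjusted p = 0.00347), Nmrk1 by -0.42 ± 0.10 (adjusted p = 0.0126) and Ciapin1 by 0.27 ± 0.07 (adjusted p = 0.0296). For Zfp869 the groups did not overlap in smoke, with wild-type arrays at 9.13 or above and Hhip+/- arrays at 8.91 or below.

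Emcn was the exception, at 0.09 ± 0.08 in smoke (adjusted p = 0.661). Its Hhip+/- smoke arrays read from 11.15 to 11.78, within the range of the wild-type smoke arrays. The difference between its smoke and air effects had an adjusted p of 0.338, so it was not called as differing between exposures. Edn1 likewise differed by 0.77 in air and -0.08 in smoke. Over all genes the test of that difference called 0 genes, with 491 at an unadjusted p below 0.05 (4.33%). Of the 212 smoke genes, 188 had the same sign in air, where 7222 of all 11346 genes did. Chromosome 8 held 36 of the 212, which is 6.38% of its tested genes against 1.7% elsewhere. Without Hhip+/- smoke replicates 1, 5 and 12, 127 genes were called in smoke, 115 of them among the 212.

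**Figure D5:**
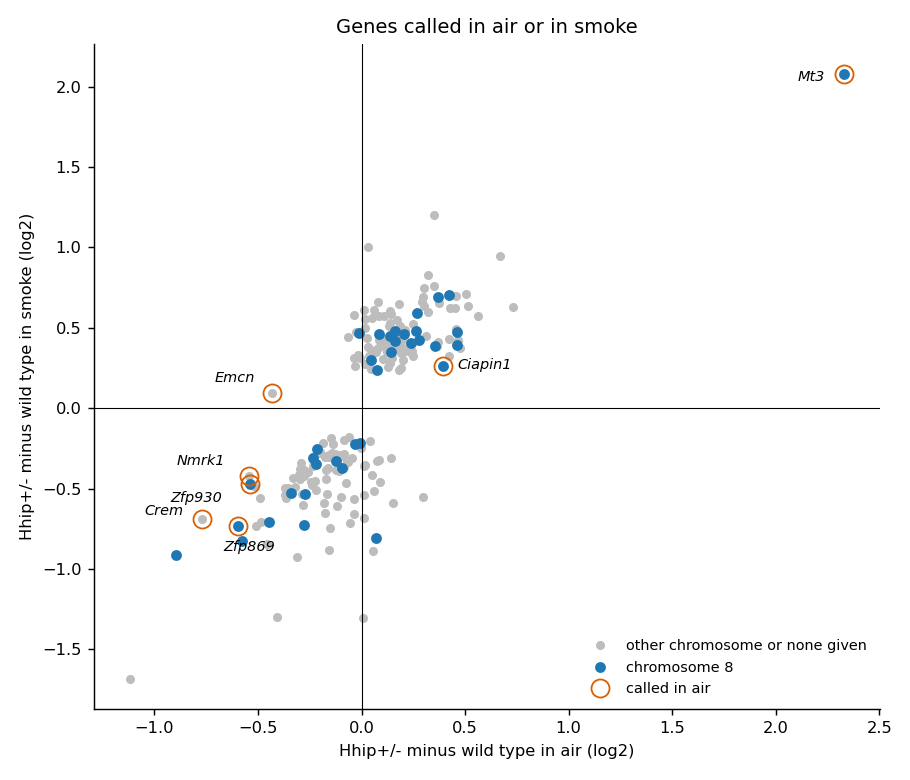
The genotype difference in smoke (log2) against that in air for every gene called in air or in smoke; blue points lie on chromosome 8 and orange rings mark the 7 genes called in air. Mt3 stands apart at 2.33 and 2.08, and Emcn is the ringed gene with opposite signs.

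Fam13a-/- air arrays (6, all with sample numbers up to 64) offered another C57BL6 group in air, compared with the same 12 Hhip+/- arrays. Mt3 was the 1 gene called (0.00881%), at 2.60 ± 0.43 (adjusted p = 2.20e-04), and was detected on 0 of the 6 Fam13a-/- arrays. Taken as for wild type, Hhip+/- lung was at least 4.29-fold higher on the background-corrected scale. Zfp869 differed by -0.64 ± 0.15 (adjusted p = 0.129), Ciapin1 by 0.44 ± 0.11 (adjusted p = 0.273) and Zfp930 by -0.49 ± 0.15 (adjusted p = 0.999). None of these was called, and their sizes were close to the differences from wild type, which use the same Hhip+/- arrays. Crem differed by -0.28 ± 0.22, and Fam13a-/- air read 7.05 ± 0.27 (SD, n = 6), between the 6.77 of Hhip+/- and the 7.54 of wild type. NZWLacJ air arrays read on average 8.07 for Zfp869 and 6.73 for Zfp930, below Hhip+/- air, and 5.48 for Mt3, with 5 of 8 detected.

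The remaining lists of pathways and cell types held few calls. Of 37 lists, 3 had a called member in air, and these were Mt3, Crem and Emcn. In the list of cAMP and CREB genes, 18 tested, Crem was the 1 call, with a median of 0.05, and the endothelial list had Emcn as its 1 call among 19, with a median of -0.02. Of the 19 endothelial genes 11 lay below 0, and at an unadjusted p below 0.05 were Emcn, Nos3, the endothelial nitric oxide synthase (-0.36, adjusted p = 0.392), and Ramp2 (0.19, adjusted p = 0.571). List medians ran from -0.32 for heart muscle to 0.28 for plasma cells, beside -0.0065 for all genes.

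Lists with no call are given by their direction and the member of smallest p, beside 5462 of 11346 genes above 0 and 5884 below over all genes tested. In the Wnt list 18 of 23 genes lay above 0, with a median of 0.22. At an unadjusted p below 0.05, 5 were higher, where 3.59% of all genes were. The receptor gene Fzd2 differed by 0.56 ± 0.18 (adjusted p = 0.241) in air and was called in smoke at 0.57 (adjusted p = 0.0468). It was not called in smoke without the same 5 arrays that were left out for Dhh (adjusted p = 0.0905). All 12 tested B cell genes lay above 0, with a median of 0.21 and a range up to 0.55 for Pou2af1, a B cell coactivator (adjusted p = 0.613). Plasma cell, T and NK cell, smooth muscle, type 2 alveolar, fibroblast and mesothelial lists had medians from 0.10 to 0.28. Their members of smallest p were Xbp1 (0.18), Il7r (0.28), Lmod1 (0.27), Etv5 (0.32), Timp3 (0.24) and Upk1b (0.37).

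Below 0 lay ciliated cell genes, 10 of 13, with a median of -0.11 and Tppp3 at -0.32. Adipocyte and skeletal muscle genes had medians of -0.12 and -0.11, where Cidea differed by -0.21 and Tnnt3 by -0.13. The Tnnt3 probe was detected on only 2 of 22 wild-type and 0 of 12 Hhip+/- air arrays. Heart muscle genes, which a lung sample can carry along, had 10 of 12 members below 0. Their mean level per array ran from 5.80 to 9.79 in wild-type air and from 5.51 to 9.09 in Hhip+/- air. The heart muscle gene of smallest p, Nppb, differed by 0.22 (adjusted p = 0.777). It was detected on only 1 of 22 wild-type and 3 of 12 Hhip+/- air arrays. The mean level of the B cell list ran from 6.84 to 8.58 and from 7.14 to 9.44. How far such admixture moves the called genes was not tested.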

How the data were processed

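What the authors deposited is, for 25697 probes on every array, an intensity and a detection p-value; judged by the values, the intensities were not normalized between arrays. They also deposited processed log2 values of the same arrays, used as an alternative. Column medians of these ran from 7.212 to 7.215, and every column matched its own array best. Their background correction and normalization are unknown; method, scanner software, slides and probe sequences were not given in the sources used here.

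For the fit, the deposited intensities were passed through the steps of neqc with limma 3.58.1 in R 4.3.3. These were normexp background correction that reads the background from detection p-values, offset 16, then quantile normalization, then log2. Probes with a detection p below 0.01 on at least 6 arrays were kept (15363), and a gene was read from its brightest kept probe. Platform annotation gave 1 symbol to 23978 probes and none to 1719; symbols were updated, and gene order read, from RefSeq annotation of GRCm38.p6, while the files name no build.

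All 8 groups entered 1 fit of group means (lmFit, eBayes, 101 residual degrees of freedom) with contrasts for genotype in air, in smoke and their difference, two-sided, adjusted by Benjamini-Hochberg over 11346 genes. Every adjusted p is limma's. The fit was tested on simulated data. The number of arrays limits the precision. No pair of arrays was treated as repeats (highest correlation 0.9924), and no pair shares a sample number.

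The genes named were Hhip, Mt3, Zfp869 and Crem, the 12 largest rises and falls among called genes, called genes on Hhip's chromosome, the 5 tested genes on either side of Hhip, the tested Hedgehog and metallothionein genes, the 10 genes next to the threshold and, of the 12 other lists with the largest medians or a call, the called members or the one of smallest p. Clone, predicted and locus names were not named. The members and the gene lists were chosen with earlier results of these data known. The alternatives tried changed background correction, normalization, filter, probe choice, arrays, weights and covariates.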

Additional observations from a re-analysis of the deposited data

How the results depend on the processing

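In air 7 genes were called. The count was 18 with no background correction, 18 with the authors' processed values, 1 with median scaling, 11 with detection on 12 or more arrays, 21 with only the 34 air arrays, 16 with trended robust eBayes, 276 with array weights, 12 without the 2 arrays of low detection share (wild-type air replicate 5 and Hhip+/- smoke replicate 11), 16 with the sample number as a covariate, 1 among sample numbers up to 64 and 12 with every kept probe on its own. Chosen after seeing the data, it was 25 without wild-type replicates 6 and 22 and 66 with the first residual component as a covariate. With no filter on detection it was 8. The share of higher genes among the calls moved with them, from 28.6% to 55.6% with no background correction and 61.1% with the authors' values. Leaving out 1 array at a time gave 7 to 25 genes: 25 without wild-type replicate 22, 14 without Hhip+/- replicate 6, 13 without wild-type replicate 3, 4 or 17 or Hhip+/- replicate 1, and 11 without wild-type replicate 5 or 6 or Hhip+/- replicate 12. All 7 genes remained called in 33 of these 34 fits, the exception being Emcn. All 7 were also kept under the other settings named, except median scaling, the arrays up to 64 and an added fit of the air arrays with sample number as covariate, which called 7 genes, 3 of them shared.

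In smoke, 212 genes became 56 with median scaling, which shifted the median of all genes by about -0.1, and 127 without Hhip+/- replicates 1, 5 and 12, chosen after seeing the data. The difference of genotype effects gave 0 calls in each setting in which it was refitted: no background correction, median scaling, the authors' values, trended robust eBayes, the sample number as covariate and without 5 arrays (352 to 536 genes at an unadjusted p below 0.05). No called gene changed direction. The causes were not tested. A slide block could not be run, because no slide is named in the labels or headers. No paired analysis was possible because every sample number occurs once. Signal over background limits Mt3, Nmrk1, Sufu and other dim probes.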

Other observations

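Among 14 circadian clock genes tested, 3 lay above and 1 below 0 at an unadjusted p below 0.05 in air, where 3.59% and 4.97% of all genes did. Dbp, a clock output gene singled out after its values were seen, had a mean of 10.40 ± 1.27 (SD, n = 22) for wild type and 11.38 ± 0.24 (SD, n = 12) for Hhip+/-, which differed by 0.98 (limma adjusted p = 0.221). The wild-type arrays were the more spread, as they were for Crem. The labels give no time of day for tissue collection, and its part in these values was not tested.

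An array's position was also read between the genotypes on a scale from 0, the mean of wild-type smoke, to 1, the mean of Hhip+/- smoke, over smoke-called genes that were not called in air. Over 32 such genes on chromosome 8, Hhip+/- air arrays lay from 0.32 to 1.29, median 0.69, and wild-type air arrays from -0.18 to 0.90, median 0.24. Wild-type air replicate 22 lay highest of its group, at 0.90, and replicate 8 at 0.77. Replicate 6, at 0.38, did not stand apart on this scale: replicates 13 and 9 lay above it at 0.41 and 0.39. Hhip+/- smoke replicates 1, 5 and 12 lay at 1.02, 0.73 and 0.99, within their group, though they helped to set the scale. Over 174 genes on other chromosomes, Hhip+/- air arrays lay from 0.29 to 1.09 and wild-type air arrays from -0.22 to 0.99. The medians there were 0.61 and 0.19. Hhip+/- and wild-type air arrays overlapped on both scales. NZWLacJ air arrays had a median of 1.08 on the chromosome 8 scale, above Hhip+/- air, and 0.34 on the other. Fam13a-/- air arrays had medians of 0.20, below wild type, and 0.44, between wild type and Hhip+/-. A shift on these scales was thus not particular to Hhip+/- lung, and its cause was not tested.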
